A study of Mus musculus with 18 samples.

Results

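The genes described here encode the nuclear subunits of the 5 complexes of oxidative phosphorylation, measured by RNA-seq in whole mouse pancreatic islets, which hold the insulin-secreting beta cells and other endocrine cells. They were chosen by name in the count tables. The symbols taken were Ndufa, Ndufb, Ndufc, Ndufs or Ndufv followed by digits, Sdha to Sdhd, symbols that begin with Uqcr or Atp5, and Cox4, Cox5, Cox6, Cox7 or Cox8 with their letters. This gave 82 of the 53801 mouse genes listed: 36 for complex I, 4 for complex II, 8 for complex III, 18 for complex IV and 16 for complex V. Symbols with -ps (8 processed pseudogenes) were left out by the rule, and Ndufab1 and Ndufa4l2 did not match it. Cyc1, the cytochrome c1 subunit of complex III, carries none of these names. A filter on low counts kept 79 of the 82 for testing, and the other 3 were Cox7b2 and Cox8b, at or near 0 counts, and Cox8c, at 0 counts in every library.

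The mice were 5 weeks old and ate normal chow. They carried the S64F change of MafA on 1 allele (S64F/+) or were wild type (WT), and the groups were male S64F/+ (4 libraries), male WT (4), female S64F/+ (5) and female WT (5). MafA is a beta-cell transcription factor needed for full insulin gene activity, and the series' title ties S64F to MODY, an inherited early-onset diabetes, and to a bias towards males. The labels do not say whether each library came from its own animal, so p-values measure the spread between these libraries.

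Oxidative phosphorylation is the mitochondrial process that turns the energy of NADH and succinate into ATP. Complex I takes electrons from NADH and complex II takes them from succinate, complex III passes them to cytochrome c, complex IV hands them to oxygen, and complex V, the ATP synthase, uses the proton gradient that results. Most subunits are encoded in the nucleus and a few core subunits of complexes I, III, IV and V in mitochondrial DNA. In beta cells the ATP made this way closes potassium channels and so couples glucose metabolism to insulin secretion.

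Libraries held 19317971 to 108659014 counts. The endocrine markers fit islets in all libraries: Ins1 and Ins2 together took 13.1 to 13.8% of counts in male S64F/+, 19.9 to 23.5% in male WT, 12.7 to 20.7% in female S64F/+ and 15.7 to 25.9% in female WT islets. Mafa averaged 197 ± 52.2 CPM (counts scaled to a common library total) in male S64F/+ and 905 ± 80.8 CPM in male WT islets (SD, n = 4 each), and 160 ± 49.7 CPM in female S64F/+ and 639 ± 117 CPM in female WT islets (SD, n = 5 each). CPM here are scaled by the TMM method, which corrects library totals for differences in composition. These counts do not show the S64F allele itself. Because whole islets were sequenced, fewer cells of a type and less RNA per cell cannot be told apart. Female WT 4 and female S64F/+ 1 stood apart from their groups: female WT 4 had the highest insulin share of all libraries (25.9%), and female S64F/+ 1 the lowest (12.7%). Female S64F/+ 3 had the highest summed level of the subunit genes (7726 CPM).

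In the deposited FPKM values, which divide by the gene length that the authors used, Cox8a was the highest of the 82 genes. It encodes the ubiquitous form of a small complex IV subunit, and its mean was 188 FPKM over the 18 libraries (range 141 to 266). Ndufa1, a membrane-arm subunit of complex I, followed at 132 FPKM, and Cox6a2, a complex IV subunit, at 85.4 FPKM. Within complex II the membrane anchor Sdhd was highest at 68.2 FPKM and the iron-sulfur subunit Sdhb lowest at 14.1 FPKM. Within complex III the Rieske iron-sulfur protein Uqcrfs1 was highest at 50.5 FPKM and the core protein Uqcrc1 lowest at 14.6 FPKM. In complex V the catalytic beta subunit Atp5b averaged 63.7 FPKM, close to the alpha subunit Atp5a1 at 63.5 FPKM, while Atp5s, known as coupling factor B, averaged 2.53 FPKM. The lowest tested genes were Ndufb2 in complex I (2.01 FPKM) and Cox6b2 in complex IV (0.156 FPKM). The order depends on the length the authors used. For many genes it was far longer than the GENCODE transcript, for example 7028 bases against 2020 for Ndufa10. It was 7871 against 1916 bases for Atp5b and 7373 against 1653 for Uqcrc1. For Cox8a it was 545 against 550 bases, and for Uqcrfs1 1363 in both. Over all libraries Atp5b had 393552 counts, Cox8a 81678, Uqcrc1 84447 and Uqcrfs1 53421. Per transcript length Atp5b was therefore above Cox8a and Uqcrc1 above Uqcrfs1, so these rankings hold for the deposited FPKM only.

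Several subunits of complex IV come in paired isoforms, and the FPKM values showed which were used in islets. Cox4i1 averaged 35.8 FPKM against 1.04 FPKM for Cox4i2, the isoform known from lung and from cells at low oxygen. Cox7a2 averaged 40.0 FPKM against 0.697 FPKM for Cox7a1, the heart and muscle isoform, and Cox6b1 averaged 41.7 FPKM against 0.156 FPKM for the testis isoform Cox6b2. Cox6a2, known as the heart and skeletal muscle isoform, was at a similar level to the ubiquitous Cox6a1, with 85.4 FPKM against 60.0 FPKM. Their order depended on the length used. The authors' FPKM divide Cox6a1 by 1191 bases, where its transcript has 571, and Cox6a2 by 680 bases, as in its transcript. Over all libraries Cox6a1 had 56315 counts and Cox6a2 47063, so per transcript length Cox6a1 was the higher. The 9 striated muscle markers summed to only 2.22 to 4.19 CPM in any library. Cox6a2 was 54.3 to 72.8 CPM in male S64F/+ and 37.8 to 60.1 CPM in male WT islets, and 47.0 to 93.2 CPM in female S64F/+ and 16.4 to 70.1 CPM in female WT islets. The groups overlapped in both sexes, and neither genotype difference passed the test (log2 fold change 0.57 ± 0.35 SE in males, edgeR adjusted p 0.256, and 0.68 ± 0.31 in females, adjusted p 0.141). The c-ring of complex V is encoded by Atp5g1, Atp5g2 and Atp5g3, which yield the same mature protein, and these averaged 5.72, 22.1 and 32.7 FPKM.

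The summed level of the 82 genes was 5303, 5275, 5325 and 5297 CPM in the 4 male S64F/+ libraries, against 5620, 5335, 5926 and 6197 CPM in the 4 male WT libraries. The male S64F/+ libraries lay close together and all below the male WT libraries. In females the order was the other way: the sum was 5268, 5699, 7726, 6761 and 6618 CPM in S64F/+ islets against 4970, 4556, 4633, 6325 and 5703 CPM in WT islets. The female groups overlapped through female S64F/+ 1 and 2 and female WT 4 and 5. Taken as a plain share of all counts, with no TMM scaling, the subunit genes made up 0.568 to 0.604% in male S64F/+ against 0.527 to 0.565% in male WT islets, so in males the order depended on the scaling. In females that share was 0.553 to 0.695% in S64F/+ against 0.48 to 0.57% in WT islets.

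By complex, the highest sums were those of complexes V and I. Complex V summed to 1889 ± 62.4 CPM in male S64F/+ and 2049 ± 151 CPM in male WT islets (SD, n = 4 each), and to 2256 ± 279 CPM in female S64F/+ and 1848 ± 251 CPM in female WT islets (SD, n = 5 each). Complex IV spanned a wide range, with 771 to 814 CPM in male S64F/+, 800 to 959 CPM in male WT, 757 to 1391 CPM in female S64F/+ and 679 to 1106 CPM in female WT islets. Complex III summed to 503 to 701 CPM in female S64F/+ and 431 to 590 CPM in female WT islets. Complex II spanned a narrow range, with means of 398 ± 14.3 CPM in male S64F/+, 460 ± 20.7 CPM in male WT, 447 ± 23.4 CPM in female S64F/+ and 422 ± 32.1 CPM in female WT islets. Complex I summed to 1711 ± 95.1 CPM in male S64F/+ and 1844 ± 190 CPM in male WT islets (SD, n = 4 each), and to 2018 ± 353 CPM in female S64F/+ and 1660 ± 256 CPM in female WT islets (SD, n = 5 each).

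**Figure D1:**
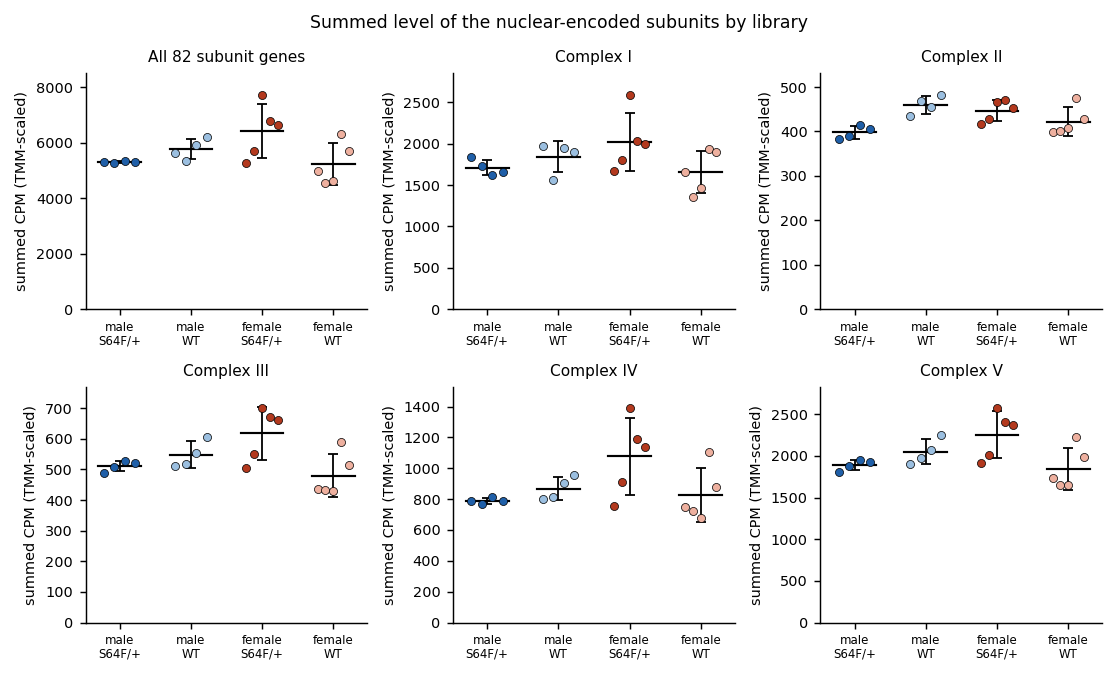
Summed CPM (TMM-scaled) of all 82 subunit genes and of the genes of each complex, 1 point per library, with the group mean as a line and the SD as the error bar. The 4 male S64F/+ libraries sit between 5275 and 5325 CPM, below the male WT libraries, while the female groups overlap and female S64F/+ 3 is highest at 7726 CPM.

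Members differed widely in how much they moved over the 18 libraries. The ratio of the highest to the lowest library had a median of 2.09 over the 79 tested genes. The flavoprotein subunit Sdha was the steadiest (196.9 to 239 CPM, a ratio of 1.21), followed by the complex I core subunit Ndufs1 (1.28). Above a mean level of 1 CPM, Cox6a2 (5.67), Atp5e, the epsilon subunit of complex V (4.34) and Cox4i2 (3.97) were among those that varied most.

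In males, few subunit genes differed between S64F/+ and WT islets in the fit of all 18 libraries. Of the 79 tested genes none rose and 6 fell (edgeR quasi-likelihood test, Benjamini-Hochberg adjusted p under 0.05 over all 18364 tested genes). Over all tested genes 15.3% rose and 12.3% fell, so the share of subunit genes that fell was the lower one in this fit. The median log2 fold change of the 79 was -0.14, against -0.03 for all tested genes, and 67 of the 79 lay below 0. Both the balance of calls and the direction of the median depended on the scaling. With plain library-size scaling 4 genes rose (Cox6b2, Ndufa1, Ndufs4 and Uqcr10) and 2 fell (Cox7a2l and Ndufb8). The median was then 0.08, where the median of all genes was 0.19. Set against the median of all genes it was -0.12 with TMM and -0.11 with library-size scaling. Calls also depended on which libraries shared a fit. The male libraries alone gave 21 called subunit genes and the female libraries alone 18. The fit of all 18 libraries called 6 in males and 42 in females, so the larger number in females depended on fitting all libraries together.

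The 2 largest falls in males were in Ndufb8 and Cox7a2l. Ndufb8, an accessory subunit of the membrane arm of complex I whose protein is often used to read out assembly of that complex, was at 25.8, 36.3, 35.0 and 33.4 CPM in male S64F/+ islets, against 43.8, 46.4, 54.3 and 59.3 CPM in male WT islets. The groups did not overlap, and the log2 fold change was -0.65 ± 0.15 (SE; edgeR adjusted p 0.00303). Cox7a2l, also known as SCAF1, joins complexes III and IV in supercomplexes. It was at 85.0, 67.1, 88.4 and 81.2 CPM in male S64F/+ islets, against 105.9, 110.4, 138.0 and 137.7 CPM in male WT islets, again without overlap (log2 fold change -0.61 ± 0.16, edgeR adjusted p 0.0071). In GRCm38 Ndufb8 lies at chr19:44548572-44555440 (minus strand) and Cox7a2l at chr17:83501918-83517330 (minus strand). Both calls held in all 18 fits that left out 1 library and under all 14 other settings. Ndufb8 shares exons on the same strand with the gene Gm20538, which had at most 0.0332 CPM in any library.

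The other 4 falls were smaller. Ndufv3, an accessory subunit of the NADH-binding module, averaged 35.2 ± 1.86 CPM in male S64F/+ and 48.5 ± 4.13 CPM in male WT islets (SD, n = 4 each; log2 fold change -0.46, edgeR adjusted p 0.027). Ndufs8, a core subunit that holds iron-sulfur clusters, was at 29.4 to 30.9 CPM in male S64F/+ and 32.6 to 40.7 CPM in male WT islets (log2 fold change -0.28, edgeR adjusted p 0.0492). The core protein Uqcrc2 of complex III was at 98.9 to 108 CPM in male S64F/+ and 116 to 139 CPM in male WT islets (-0.24, edgeR adjusted p 0.0395), and Sdha at 197 to 209 CPM in male S64F/+ and 227 to 233 CPM in male WT islets (-0.17, edgeR adjusted p 0.0428). In all 4 genes every male S64F/+ library was below every male WT library. These calls were less steady: with library-size scaling none of the 4 was called, Sdha had a log2 fold change of 0.05, and leaving out 1 library ended the call of Ndufs8 in 13, Sdha in 12, Uqcrc2 in 7 and Ndufv3 in 5 of 18 fits. The count of subunit genes that fell was 2 without male WT 3, male WT 4 or male S64F/+ 2, 3 or 4, and 3 without male S64F/+ 1 or female S64F/+ 2. With replicate numbers as a block in the females, which alters the shared estimate of the spread, 1 rose and 11 fell. In a fit of the male libraries alone 2 rose and 19 fell. The share of all tested genes called in these fits is not given here.

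In females, S64F/+ islets showed a broad rise. Of the 79 tested subunit genes 41 rose and 1 fell, where over all tested genes 10.2% rose and 11.0% fell. The median log2 fold change was 0.41, against 0.02 over all genes, and 77 of the 79 lay above 0. Under the 4 other scalings the median was 0.35 to 0.44 and 39 to 45 genes rose. The gene that fell was Cox7a2l. With the female replicate numbers as a block, taken as pairs on these data alone, 55 rose and 1 fell (median 0.39). The labels give no pairs. Among genes given as not called in what follows, Sdhb, Cox8a, Atp5b and Atp5g1 were called with the block (edgeR adjusted p 0.0208, 0.0103, 0.0252 and 0.0143). The female count also rested on single libraries: 57 rose without female WT 4 or without female S64F/+ 1, and 27 without female S64F/+ 3. In a fit of the female libraries alone 18 rose, and the share of all tested genes called in it is not given here.

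**Figure D2:**
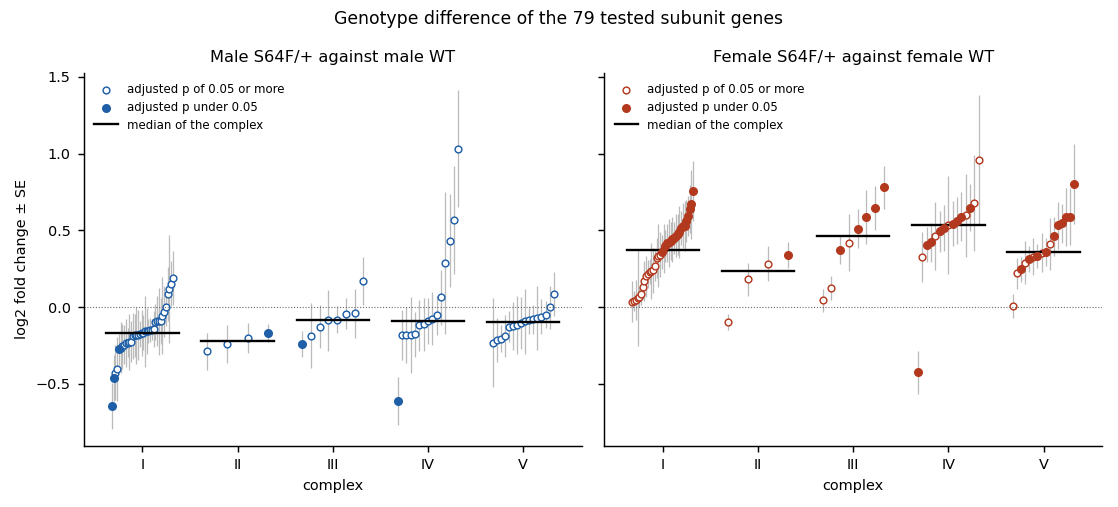
Log2 fold change of the 79 tested subunit genes with its standard error, by complex, for male S64F/+ against male WT (left) and female S64F/+ against female WT (right). Filled points have an adjusted p under 0.05 and black lines are medians: the complex medians lie between -0.22 and -0.08 in males and between 0.23 and 0.53 in females, and Cox7a2l is the filled point far below the rest of complex IV in both sexes.

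In complex III, 5 of 8 genes rose in females (median 0.47). The smallest p of all subunit genes was that of Uqcr10, a small accessory subunit at chr11:4701973-4704342 (minus strand). It was at 38.4, 49.8, 68.1, 59.2 and 59.8 CPM in female S64F/+ islets, against 28.4, 30.2, 24.9, 42.9 and 33.8 CPM in female WT islets. The groups overlapped through female S64F/+ 1 and female WT 4 alone (log2 fold change 0.78 ± 0.14, edgeR adjusted p 0.000656). Uqcrh, the hinge protein that binds cytochrome c1, also rose, and averaged 77.4 ± 21.7 CPM in female S64F/+ and 49.5 ± 7.18 CPM in female WT islets (SD, n = 5 each; log2 fold change 0.64, edgeR adjusted p 0.00395). Uqcrb, Uqcrq and the Rieske protein Uqcrfs1 rose as well (0.51, 0.59 and 0.37 on the log2 scale). The core proteins Uqcrc1 and Uqcrc2 did not pass the test (0.13 and 0.04, edgeR adjusted p 0.28 and 0.731).

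In complex I, 17 of 36 genes rose in females and none fell (median 0.37). Ndufs4, an accessory subunit whose loss in mice causes a Leigh-like encephalopathy, was at 34.0, 34.8, 60.3, 43.2 and 41.1 CPM in female S64F/+ islets, against 26.9, 25.1, 25.8, 34.3 and 29.2 CPM in female WT islets (log2 fold change 0.59 ± 0.13, edgeR adjusted p 0.00293). Only female WT 4 reached the range of the S64F/+ libraries. Ndufa12 (0.51, edgeR adjusted p 0.0028), Ndufa1 (0.64, adjusted p 0.00767) and the membrane-arm subunits Ndufb10 (0.45, adjusted p 0.00547) and Ndufb3 (0.56, adjusted p 0.00615) rose as well. The 7 core subunits encoded in the nucleus, which carry the flavin, the iron-sulfur clusters and the quinone site, had 1 gene that rose, Ndufv2, and a median of 0.17, against 16 of 29 and a median of 0.42 for the other complex I genes. This split was chosen after the values were seen and its difference was not tested. Ndufb8, which fell in males, was level in females, with 48.1 ± 9.54 CPM in S64F/+ and 46.5 ± 6.21 CPM in WT islets (SD, n = 5 each; edgeR adjusted p 0.838).

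In complex II, Sdhd, at chr9:50596357-50603812 (minus strand), rose in females, with 82.8, 90.5, 108, 106 and 93.8 CPM in S64F/+ islets, against 72.2, 73.4, 70.8, 89.7 and 74.6 CPM in WT islets (log2 fold change 0.34 ± 0.09, edgeR adjusted p 0.00931). Every S64F/+ library was above every WT library other than female WT 4. The catalytic subunit Sdha was at 199 to 221 CPM in female S64F/+ and 214 to 239 CPM in female WT islets and was not called (-0.10, edgeR adjusted p 0.204). Sdhb and Sdhc had log2 fold changes of 0.28 and 0.18 and did not pass the test.

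In complex IV, 8 of 15 tested genes rose and Cox7a2l fell in females (median 0.53). Cox6b1, which faces the intermembrane space, was at 61.9, 75.3, 130, 90.9 and 87.1 CPM in female S64F/+ islets, against 49.6, 52.1, 48.8, 71.4 and 61.9 CPM in female WT islets (log2 fold change 0.65, edgeR adjusted p 0.00636). The groups overlapped through female S64F/+ 1 and female WT 4 and 5. Cox4i1, Cox7a2 and Cox7b rose by 0.52, 0.56 and 0.50 on the log2 scale. Cox8a, the highest gene by FPKM, was at 87.9 to 154 CPM in female S64F/+ and 74.3 to 141 CPM in female WT islets and was not called (0.33, edgeR adjusted p 0.163). Cox7a2l went against the rest of its complex. It was at 70.1, 98.4, 121, 117 and 101 CPM in female S64F/+ islets, against 129, 115, 127, 179 and 132 CPM in female WT islets (log2 fold change -0.43 ± 0.14, edgeR adjusted p 0.0372). Female S64F/+ 3 and 4 reached the range of the WT libraries. It was the only subunit gene called in the same direction in both sexes, and the male and female differences were not told apart (difference -0.19 ± 0.21 on the log2 scale, edgeR adjusted p 0.623). Dropping single libraries ended the female call in 6 of 18 fits, with an edgeR adjusted p of up to 0.0994 (without female WT 4), and it was also lost with upper-quartile scaling, with no filter and in a fit of the female libraries alone. Its female log2 fold change was -0.50 to -0.31 over the 18 fits.

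In complex V, 10 of 16 genes rose in females (median 0.36). Atp5o, the stalk subunit called OSCP, was at 50.8, 58.5, 95.7, 61.8 and 61.3 CPM in female S64F/+ islets, against 44.1, 39.8, 41.1, 51.1 and 48.3 CPM in female WT islets (log2 fold change 0.55 ± 0.13, edgeR adjusted p 0.00501), and only female WT 4 overlapped with the S64F/+ libraries. Of the c-ring genes, Atp5g3 (0.33, edgeR adjusted p 0.00496) and Atp5g2 (0.31, adjusted p 0.014) rose, and Atp5g1 (0.35, adjusted p 0.0584) missed the threshold. Atp5f1, the b subunit of the peripheral stalk (0.36, adjusted p 0.00923), the central-stalk subunit Atp5d (0.46, adjusted p 0.015) and Atp5s (0.25, adjusted p 0.0365) rose. The largest log2 fold change within complex V was that of Atp5e (0.80, adjusted p 0.0376), in which female S64F/+ 3 stood at 235 CPM and the other S64F/+ libraries at 76.8 to 141 CPM, against 54.1 to 117 CPM in female WT islets. The alpha and beta subunits that form the catalytic head, Atp5a1 and Atp5b, did not pass the test (0.00 and 0.22, edgeR adjusted p 0.979 and 0.129).

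**Figure D3:**
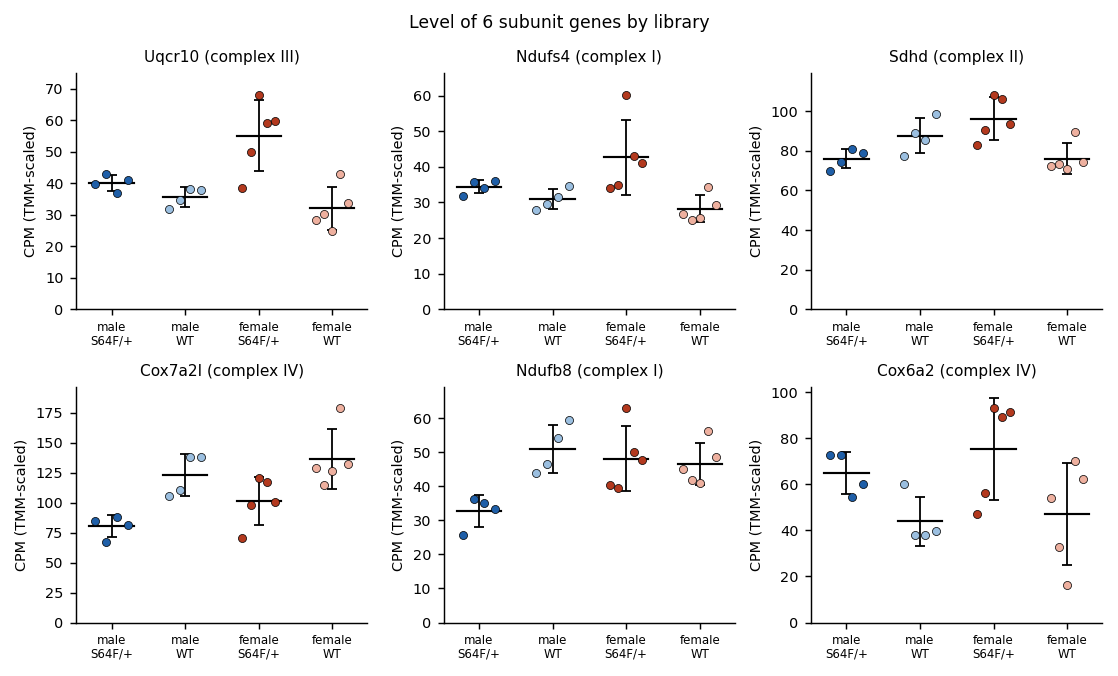
CPM (TMM-scaled) of 6 subunit genes, 1 point per library, with group mean and SD. Uqcr10, Ndufs4 and Sdhd are higher in female S64F/+ than in female WT islets with overlap through female WT 4, Cox7a2l is lower in S64F/+ in both sexes, Ndufb8 is lower in male S64F/+ islets with no overlap, and Cox6a2 overlaps in both sexes.

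The difference between the genotype effects was tested directly as the male minus the female effect. Of 79 genes 8 had a lower effect in males and none a higher one, where over all tested genes 1.6% were lower and 2.87% higher. The median difference was -0.52 on the log2 scale, against 0.01 for all genes, and 77 of the 79 lay below 0. The called genes were Sdhd (-0.54 ± 0.13, edgeR adjusted p 0.0286), Ndufb10 (-0.59, adjusted p 0.0433), the core subunits Ndufs3 (-0.46, adjusted p 0.0439) and Ndufs8 (-0.49, adjusted p 0.0471), Ndufb3 (-0.73, adjusted p 0.0463), Ndufa4 (-0.66, adjusted p 0.0476), Ndufs5 (-0.60, adjusted p 0.0478) and Atp5f1 (-0.49, adjusted p 0.0494). Ndufa4 was first described in complex I and is now assigned to complex IV. Sdhd was at 70.0, 74.4, 80.9 and 79.0 CPM in male S64F/+ and 77.4, 89.0, 85.4 and 98.6 CPM in male WT islets, overlapping in part, while in females it was higher in S64F/+ islets as given above.

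All 8 adjusted p lay close to the threshold and the count moved with the setting. It was 0 with library-size scaling, in which all genes shifted by 0.25, and 0 with insulin counts taken out of the library totals. DESeq2 called 26, and the block of replicate numbers in the females, taken as pairs on these data alone, gave 41. It was 42 without female WT 4 and 43 without female S64F/+ 1. It was 12 without male WT 2 or female S64F/+ 2, 4 without female S64F/+ 3, 2 without male WT 1, 1 without male WT 3, male S64F/+ 3 or 4, female WT 1 or 5 or female S64F/+ 5, and 0 without each of the remaining 6 libraries. The median of the members stayed below 0 in every one of these fits, between -0.62 and -0.27.

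Within S64F/+ islets, 33 subunit genes were lower in males than in females and none higher, where over all genes 8.12% were lower and 8.0% higher. The median was -0.36. Ndufb2 (-0.50, edgeR adjusted p 0.00702), Ndufa6 (-0.60, adjusted p 0.0108), the core subunit Ndufs7 (-0.57, adjusted p 0.0126), Ndufb4 (-0.57, adjusted p 0.0137), Ndufb8 (-0.56, adjusted p 0.0138) and Ndufa7 (-0.61, adjusted p 0.0158) had the smallest p. Ndufb2 was at 11.6 to 13.7 CPM in male S64F/+ and 14.5 to 20.9 CPM in female S64F/+ islets, without overlap. Cell-type markers moved in the same comparison, and their part in it was not tested. Of 10 stellate-cell and fibroblast markers 7 were higher in males (summed 1611 to 2452 CPM in male S64F/+ against 301 to 1083 CPM in female S64F/+ islets), and of 10 endothelial markers 6 were higher (976 to 1178 CPM in male S64F/+ against 618 to 875 CPM in female S64F/+ islets). Of 10 alpha-cell markers 5 were lower in males (36730 to 61220 CPM in male S64F/+ against 60840 to 83870 CPM in female S64F/+ islets), and of 14 beta-cell markers 2 were higher and 3 lower. Of 11 acinar markers 0 were called, but all 11 lay below 0 in males (median -1.01). They summed to 4639 to 19590 CPM in male S64F/+ against 17530 to 41520 CPM in female S64F/+ islets. The count of subunit genes was 8 to 10 when any 1 male S64F/+ library was left out, 10 without female S64F/+ 4, 12 without female S64F/+ 3 or 5, 56 without female S64F/+ 1, 9 with library-size scaling and 17 in a fit of the S64F/+ libraries alone. Within WT islets edgeR called 0 of the 79 between males and females, where over all genes 1.73% were higher and 0.637% lower in males. At an unadjusted edgeR p under 0.05 there were 11, but the share of all genes at that threshold was not counted. DESeq2 called 1, and the median was 0.15. Without female WT 4 edgeR called 3, without female S64F/+ 3 it called 2 and without female S64F/+ 1 it called 1, all higher in males. Males and females of 1 genotype were sequenced as separate libraries and the labels give no run or date, so a sex difference and a difference in handling cannot be told apart.

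Transcript length and promoter sequence were not used to choose the genes. The subunit genes have short transcripts: the median GENCODE transcript was 787 bases (360 to 4715), against 2990 for tested genes with a length. In females, fold changes moved with transcript length in all other genes as well. Their median log2 fold change was 0.35 under 750 bases, 0.28 from 750 to 1000, 0.20 from 1000 to 1500, 0.10 from 1500 to 2500, 0.01 from 2500 to 4000 and -0.10 from 4000 bases up. The subunit genes had 0.48, 0.47, 0.33, 0.13, 0.04 and 0.31 in the same ranges, with 36, 11, 14, 13, 3 and 2 genes. Of other genes under 750 bases 31.5% rose in females, and of the subunit genes 22 of 36. The subunit genes of 1500 bases or less had 36 of 61 rising (median 0.45), and those over 1500 bases 5 of 18 (median 0.16). In males the medians of other genes ran from -0.12 under 750 bases to 0.03 from 4000 bases up. Those of the subunit genes were -0.12 under 750 bases and -0.19 from 4000 bases up (2 genes), with the other ranges between these.

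**Figure D4:**
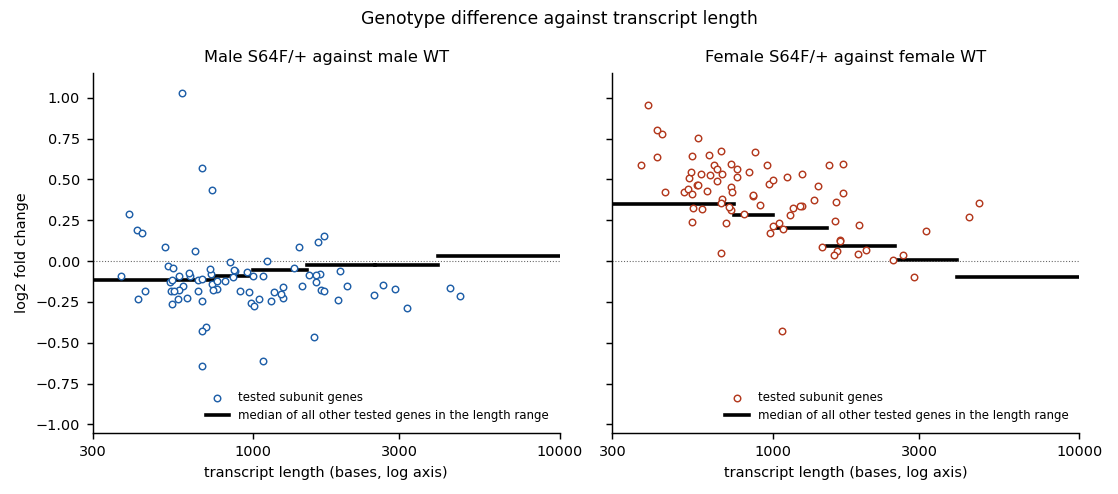
Log2 fold change of the 79 tested subunit genes against transcript length (log axis), for males (left) and females (right), with the median of all other tested genes in each length range as a black bar. In females the bars step down from 0.35 to -0.10 as length grows and most subunit genes lie above them, while in males the bars stay between -0.12 and 0.03.

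When a smooth trend in transcript length was taken out of each library before testing, a setting added after the data had been seen, 15 subunit genes rose and 2 fell in females and their median was 0.12. In males 3 rose and 8 fell, and the median male minus female genotype effect was -0.18 with 0 calls. Within S64F/+ islets 5 were lower and 1 higher in males. Of the 42 female calls 15 were shared. Uqcr10, Ndufs4, Ndufa12, Uqcrh, Cox6b1 and Ndufb3 were called in that fit too, while Sdhd, Ndufa1, Ndufb10, Uqcrb and Atp5g3 did not, and Ndufb8 was then lower in female S64F/+ islets (-0.30). A trend in transcript GC content, taken out the same way, left 42 rising and 1 falling in females. The part of transcript length in the genotype difference was not tested beyond this fit.

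Subunit genes and other genes with short transcripts moved alike from library to library. As the median deviation from the mean of all libraries on the log2 CPM scale, the 79 subunit genes stood at -0.12, 0.04, 0.58, 0.37 and 0.33 in the female S64F/+ libraries, against -0.27, -0.27, -0.35, 0.17 and -0.07 in the female WT libraries. The 884 other tested genes with transcripts under 1000 bases stood at -0.08, 0.11, 0.50, 0.26 and 0.25 in the female S64F/+ libraries, against -0.17, -0.16, -0.22, 0.14 and -0.06 in the female WT libraries. In both sets female S64F/+ 1 was lowest among the female S64F/+ libraries and female WT 4 highest among the female WT libraries. The male libraries lay between -0.16 and 0.13 for the subunit genes and between -0.15 and 0.04 for the other short genes.

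**Figure D5:**
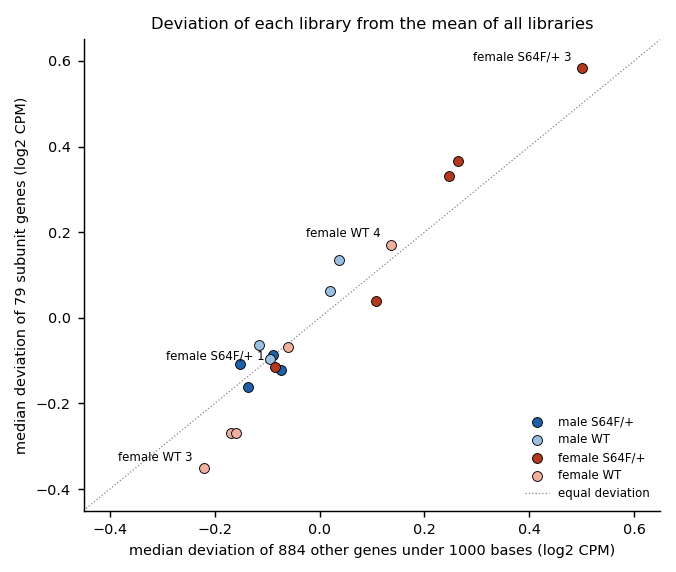
Median deviation of the 79 subunit genes (vertical) against that of 884 other genes with transcripts under 1000 bases (horizontal), both in log2 CPM from the mean of all libraries, 1 point per library. The libraries lie near the dotted line of equal deviation, with female S64F/+ 3 at the top right and female WT 3 at the lower left.

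RefSeq promoters (250 bases before and 50 after the start, GRCm38.p6) were found for 66 of the 82 genes. CCGGAAG, the core bound by ETS factors such as GABP, was present on either strand in 15 of 66 (22.7%), against 15.9% of the promoters of 12639 tested genes and 9.12% of all 27025 promoters. GCATGCGC, the core bound by NRF1, was in 10 of 66 (15.2%), against 4.79% of tested and 2.8% of all promoters. AAGGTCA, the core bound by estrogen-related receptors, was in 8 of 66 (12.1%), against 3.32% and 4.66%. TGCTGAC, the letters of a MAF recognition half-site, was in 0 of 66, against 3.8% and 4.58%. A match says only that these letters are present. CCGGAAG and AAGGTCA share the letters AAG and can overlap. Among the 34 genes with a promoter that rose in females, 8 held CCGGAAG, 3 GCATGCGC and 6 AAGGTCA. The promoters shown are those of the genes at the ends of the pattern. They are Sdhd, with the smallest p for the male minus female genotype effect, Uqcr10, with the smallest p in females, and Cox7a2l, which fell in both sexes. They lie on the minus strand at chr9:50603800-50604099 (Sdhd), chr11:4704295-4704594 (Uqcr10) and chr17:83514284-83514583 (Cox7a2l) and are printed 5′ to 3′ along the gene. Capitals mark motif matches, which in Sdhd are CCGGAAG and AAGGTCA, both on the strand opposite to the gene, with their first printed base at -46 and 36 relative to the first transcribed base. None of the 4 motifs was in the windows of Uqcr10 and Cox7a2l.
Sdhd: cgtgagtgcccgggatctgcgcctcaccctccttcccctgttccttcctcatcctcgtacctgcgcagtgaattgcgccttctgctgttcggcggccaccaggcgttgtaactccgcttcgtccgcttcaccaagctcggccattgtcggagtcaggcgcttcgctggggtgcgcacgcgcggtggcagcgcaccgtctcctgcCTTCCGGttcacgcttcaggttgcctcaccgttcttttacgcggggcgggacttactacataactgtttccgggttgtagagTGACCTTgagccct
Uqcr10: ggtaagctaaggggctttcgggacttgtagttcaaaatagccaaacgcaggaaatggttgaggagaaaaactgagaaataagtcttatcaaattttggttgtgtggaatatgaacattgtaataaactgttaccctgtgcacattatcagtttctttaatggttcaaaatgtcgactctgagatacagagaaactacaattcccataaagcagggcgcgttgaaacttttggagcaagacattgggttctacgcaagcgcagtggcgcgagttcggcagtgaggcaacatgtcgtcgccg
Cox7a2l: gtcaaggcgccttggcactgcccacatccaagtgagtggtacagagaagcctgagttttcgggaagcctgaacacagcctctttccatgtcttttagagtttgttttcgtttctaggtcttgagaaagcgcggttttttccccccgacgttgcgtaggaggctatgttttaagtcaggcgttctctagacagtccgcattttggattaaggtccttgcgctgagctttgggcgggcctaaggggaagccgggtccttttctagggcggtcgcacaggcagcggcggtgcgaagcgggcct

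The 13 subunits encoded in mitochondrial DNA had all log2 fold changes below 0 in males (median -0.27) and all above 0 in females (median 0.39). Of these, mt-Co1, the catalytic subunit of complex IV, fell in males (5006 ± 459 CPM in S64F/+ and 7137 ± 1084 CPM in WT islets, SD, n = 4 each; edgeR adjusted p 0.0458). In females mt-Nd1, a membrane subunit of complex I, rose (2077 ± 343 CPM in S64F/+ and 1539 ± 220 CPM in WT islets, SD, n = 5 each; edgeR adjusted p 0.0194), and its effect differed between the sexes (-0.68, edgeR adjusted p 0.0478).

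Genes that build and feed the complexes were counted the same way, against the 15.3% of all tested genes that rose and 12.3% that fell in males, and the 10.2% and 11.0% in females. Of the tested assembly factors, 4 of 15 for complex I (among them Ndufaf6, -0.57), 5 of 14 for complexes II, III and V (among them Sdhaf1, -0.51) and 5 of 22 for complex IV (among them Cox16, -0.52) fell in males and none rose. In females 1, 2 and 2 rose and 0, 0 and 1 fell. Of 16 genes for cytochrome c and coenzyme Q, 5 fell in males, among them Coq8a (-0.48), and in females the cytochrome c gene Cycs (0.45), Hccs and Coq7 rose and Coq8a fell (-0.41). Of 19 genes of the TCA cycle and pyruvate dehydrogenase, 8 fell in males. Idh2, the mitochondrial NADP-linked isocitrate dehydrogenase, averaged 102 ± 8.02 CPM in male S64F/+ and 162 ± 12.1 CPM in male WT islets (SD, n = 4 each; log2 fold change -0.67, edgeR adjusted p 0.000347). Fumarase, Fh1, fell in males (-0.52, edgeR adjusted p 0.00881) and its genotype effect differed between the sexes (-0.80, adjusted p 0.026). Pyruvate carboxylase, Pcx, fell in both, to 83.3 ± 5.74 CPM in male S64F/+ against 196 ± 15.4 CPM in male WT islets (SD, n = 4 each), and to 106 ± 14.4 CPM in female S64F/+ against 227 ± 37.3 CPM in female WT islets (SD, n = 5 each; edgeR adjusted p 1.33e-06 and 1.39e-06). Among 18 regulators of mitochondrial biogenesis 2 rose and 2 fell in males and 2 rose and 3 fell in females, shares near those of all genes. The coactivator Ppargc1a rose in both sexes (1.25 and 1.60), Nfe2l2 rose in both (0.52 and 0.48) and Nrf1 fell in both (-0.29 and -0.37). Their effects did not differ between the sexes at the threshold (edgeR adjusted p 0.757, 0.898 and 0.713). Of the genes that the name rule missed, Ndufa4l2 rose in males (0.96, edgeR adjusted p 0.00859), while Ndufab1 and Cyc1 were not called in either sex.

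Markers of cell types moved with genotype too, and their part in the results above was not tested. Of 14 beta-cell markers 11 fell and 1 rose in males and 10 fell and 1 rose in females. Their sum was 129700 to 144400 CPM in male S64F/+ against 215900 to 294300 CPM in male WT islets, and 135300 to 246900 CPM in female S64F/+ against 170800 to 311200 CPM in female WT islets. Of 10 alpha-cell markers 1 rose and 1 fell in males, and 8 rose and 1 fell in females, where the sum was 60840 to 83870 CPM in S64F/+ against 34970 to 43270 CPM in WT islets. Of 10 stellate-cell and fibroblast markers 9 rose in males, where the sum was 1611 to 2452 CPM in S64F/+ against 244 to 565 CPM in WT islets, and 1 rose in females. Of 10 endothelial markers 7 rose in males (976 to 1178 CPM in S64F/+ against 508 to 705 CPM in WT islets) and 0 in females. In males 4 of 6 delta-cell, 0 of 4 PP-cell, 7 of 10 tested macrophage, 6 of 9 ductal, 4 of 8 Schwann-cell, 0 of 11 acinar, 1 of 4 tested lymphocyte and 0 of 5 tested red blood cell markers rose, and 1 each of the delta-cell, macrophage and lymphocyte markers fell. In females 4, 2, 6, 4, 1, 0, 1 and 0 of these lists rose, and 1 each of the delta-cell and lymphocyte markers fell. None of the tested striated muscle markers was called. The 11 acinar markers varied widely between libraries. Their sum was 4639 to 19590 CPM in male S64F/+ and 3133 to 30800 CPM in male WT islets. It was 17530 to 41520 CPM in female S64F/+ and 12610 to 48450 CPM in female WT islets.

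Counts of some subunit genes are uncertain. In the GENCODE annotation 28 of the 82 share exonic bases with another gene, 25 of them with a gene on the opposite strand, such as Atp5j with Gabpa and Cox6a2 with Itgad, and 4 with a gene on the same strand, beside Atp5o, which overlaps a second gene of its own name. Itgad reached at most 0.285 CPM in any library. Many subunit genes also have processed pseudogenes, among which reads can be split.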

How the data were processed

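RNA of isolated islets was sequenced in 18 libraries. Count tables hold reads per gene, and FPKM tables hold reads scaled to gene length and library total, both deposited by the authors as separate tables per group. STAR, featureCounts and GRCm38 are named in the submitters' processing notes, without versions; which annotation and strand setting they used was not stated. The deposited FPKM equal the count divided by the library total and 1 fixed length per gene. The 99 spike-in features had 0 counts and were left out.

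Deposited counts were tested with edgeR 4.0.16 (R 4.3.3; robust quasi-likelihood, TMM scaling) in 1 fit of all 18 libraries by group, after removing low genes (filterByExpr, minimum count 10, total 15). The 18364 genes left were adjusted together by the Benjamini-Hochberg method, at 0.05. The fit was tested on simulated data. DESeq2 1.42.0 and limma 3.58.1 served as alternatives. Depth was 19317971 to 108659014 counts per library.

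The genes and gene lists were chosen with earlier results of these data known. Genes were named by rule: 5 fixed genes, called genes (up to 12 per comparison), the highest and lowest FPKM and the largest male changes per complex, and the complex IV isoforms. Ndufa10, Ndufs1, Ndufv2, Uqcrq, Atp5a1, Atp5j, the genes printed for male against female S64F/+, the complex I core group and the length split were chosen after their values were seen. Same-numbered female libraries deviated together (correlations 0.11 to 0.418), so female numbers were taken as pairs on the data alone. Male numbers (-0.249 to 0.189) were not. The labels give no pairs, and libraries with different numbers were not compared in this way. Transcript lengths came from GENCODE M21, which matched 53706 identifiers.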

Additional observations from a re-analysis of the deposited data

Results flagged for a closer look

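Of 204 groups of 4 or 5 libraries examined, 16 held a library that stood far from the others of its group, where chance gives about 1 in 20. Female WT 4 was far above the other female WT libraries in 9 genes: Ndufa4 (76.96 CPM), Ndufb3 (36.73 CPM), Ndufs3 (53.48 CPM), Ndufs8 (37.98 CPM), Sdhd (89.69 CPM), Uqcrh (62.0 CPM), Cox7a2l (179.0 CPM), Cox7b (53.39 CPM) and Atp5g3 (128.4 CPM). Female S64F/+ 3 was far above its group in Ndufb3 (70.38 CPM), Cox4i1 (284.0 CPM) and Atp5o (95.71 CPM), and far below it in Uqcrc2 (91.14 CPM, where the others were at 109.4 to 114.5 CPM). Male S64F/+ 4 was high in Ndufs3 (44.93 CPM) and male S64F/+ 1 was low in Sdhc (63.44 CPM, where the others were at 77.8 to 80.3 CPM). Male WT 1 was high in Cox6a2 (60.06 CPM, where the others were at 37.8 to 39.8 CPM).

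The genotype effect differed between the sexes, by the edgeR test of the difference, in 8 subunit genes. The male minus female differences on the log2 scale were -0.657 for Ndufa4, -0.594 for Ndufb10, -0.733 for Ndufb3, -0.462 for Ndufs3, -0.602 for Ndufs5, -0.491 for Ndufs8, -0.544 for Sdhd and -0.488 for Atp5f1. In 5 of these genes (Ndufa4, Ndufb3, Ndufs3, Ndufs8 and Sdhd) female WT 4 was also far above its group. Without female WT 4, 42 genes were called.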

How the results depend on the processing

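Both counts of called subunit genes and medians depended on the setting. Except where stated, the share of all tested genes called under each other setting is not given here. The counts alone therefore do not show whether the subunit genes moved apart from the rest. In males (6 called) there were 3 with upper-quartile scaling, 2 with no filter, 21 in a fit of the male libraries alone, 11 with the length trend removed, 13 with that and the replicate block, and 12 with the block in females only; the median was 0.079 with library-size scaling. In females (42) there were 18 in a fit of the female libraries alone, 17 with the length trend removed (median 0.115) and 19 with that and the block (median 0.118). For the male minus female genotype effect (8) there were 4 with DESeq2 size factors or upper-quartile scaling, and 0 with library-size scaling (median -0.27) or without insulin in the totals. There were 3 with no filter, 26 by DESeq2, 2 by limma-voom, 15 with the replicate block and 41 with it in females only. With the length trend removed there were 0 (median -0.178), and 2 with that and the block (median -0.179). For male against female S64F/+ (33) there were 9 with library-size scaling (median -0.159), 11 without insulin in the totals, 16 with no filter, 17 in a fit of those libraries alone and 6 with the length trend removed (median -0.088). For male against female WT (0) DESeq2 called 1 and the length fit 2.

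Leaving out 1 library gave 2 to 8 calls in males (median -0.177 to -0.094), 28 to 57 in females (0.3 to 0.499), 0 to 43 for the difference (-0.621 to -0.439), 8 to 56 for male against female S64F/+ (-0.442 to -0.28) and 0 to 3 for male against female WT (0.095 to 0.25). In males the same fits called 3956 to 5545 genes over all tested genes. Changes of sign were looked for among the named genes that were called in the fit reported or in the alternative. For male against female, only genes called in the fit reported were checked. Ndufa1, called in male against female S64F/+ with the length trend removed but not in the fit reported, was therefore left out. The sign changed in 6 cases: Sdha in males with library-size scaling (0.052), Ndufb8 in females with the length trend removed (-0.295, and -0.297 with the block), Atp5g2 in females with both (-0.001), and Uqcr10 (0.018) and Atp5g2 (0.039) between male and female S64F/+ with the length trend removed. The cause was not tested. The replicate block, with 9 calls in males and 49 in females, was not run for male against female, since the numbers are nested in sex. Genes near 0 counts could not be tested at this depth.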
